A study of Sus scrofa with 5 samples.

Results

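The 9 genes described here encode enzymes and a chaperone that modify and crosslink collagen: LOX, LOXL1, LOXL2 and LOXL3 (the lysyl oxidase family), PLOD1 and PLOD2 (lysyl hydroxylases), P4HA1 and P4HA2 (catalytic subunits of collagen prolyl 4-hydroxylase) and SERPINH1 (a procollagen chaperone). They were found by symbol, and each of the 9 symbols matched 1 row among the 20286 gene identifiers of the deposited matrices. Pigs received full-thickness wounds covered with split-thickness skin grafts, and single-cell RNA was measured in 5 libraries, 1 per group. The groups were a graft under a hydrogel with a focal adhesion kinase inhibitor (FAKI) and a graft without treatment (STSG) at day 7, the same pair of conditions at day 90, and unwounded skin. All 4 graft groups shared the wound and the graft. The inhibitor dressings were changed every other day, and the series speaks of multiple pigs without giving the number, age or strain of the animals in a library. No library came from a graft under hydrogel alone, so inhibitor, hydrogel and dressing changes cannot be told apart.

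Collagen chains are modified inside the endoplasmic reticulum before they are secreted. Prolyl hydroxylation stabilises the triple helix, lysyl hydroxylation sets which crosslinks can form, and SERPINH1 holds the folded procollagen on its way out. Outside the cell, lysyl oxidases oxidise lysine and hydroxylysine residues of collagen and elastin, which starts the covalent crosslinks that give skin and scar their stiffness. No sequence of these genes was used here.

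The libraries held 50384513 to 79671374 UMIs (unique molecular identifiers, 1 per captured RNA molecule) in the grafts and 18485301 in unwounded skin. After filtering, 3693 to 8653 cells per graft and 1542 cells of unwounded skin remained, with medians of 5495 to 9602 UMIs per cell. Cells were clustered without the 9 genes or their partner lists, and clusters were named from markers. Fibroblast-like cells numbered 1416 (inhibitor) and 1409 (untreated) in the day 7 grafts, 789 (inhibitor) and 2093 (untreated) in the day 90 grafts, and 259 in unwounded skin. The fibroblast markers COL1A1, DCN and PDGFRA were all present in them at 97.9 CPM or more, whereas CD3E, a T cell marker, lay between 0 and 4.37 CPM. Between 1 and 51 barcodes of kept cells occurred in both libraries of a pair, most in the inhibitor graft at day 90 and unwounded skin. Leaving out every cell with a shared barcode (3 to 13 fibroblast-like cells per library) changed no call in fibroblast-like cells and left all 72 member ratios within their counting intervals.

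Levels are CPM, UMIs per 1000000 UMIs of the summed cells of a class. Counts come from the 3′ end of transcripts, so a level can be compared between libraries or cell classes but not between genes. With 1 library per group there was no replicate spread and no test. Intervals are exact, at 95%, and cover counting error only. A gene was called higher or lower where its ratio reached 1.5-fold and either library held 50 CPM, which is a rule of size. LOXL3 stayed under 50 CPM in every class of 50 cells or more and could not be called.

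LOX and LOXL1 RNA lay almost entirely in fibroblast-like cells, LOXL2 was shared with mural cells, and P4HA1 was spread over nearly all classes. Among the fibroblast-like cells, LOX was 333 CPM in the inhibitor graft and 406 CPM in the untreated graft at day 7, 573 CPM in the inhibitor graft and 597 CPM in the untreated graft at day 90, and 580 CPM in unwounded skin. By the median over libraries, pericyte or smooth muscle-like cells, called mural cells here, came next, at 15.1 to 40.5 CPM. Fibroblast-like cells supplied 87.6% to 98.5% of the LOX UMIs of a library although they were 16.4% to 38.8% of its cells. Mast-like cells were the third class for LOX by that median, with 5.94 CPM in the inhibitor graft and 4.51 CPM in the untreated graft at day 7, 33.7 CPM in the inhibitor graft and 30.4 CPM in the untreated graft at day 90, and 25.2 CPM in unwounded skin. In both day 90 grafts and unwounded skin the mast-like value was above the mural one, though it rests on 4 to 14 UMIs per library. The day 90 and unwounded libraries were the high ones in fibroblast-like and mast-like cells alike.

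LOXL1, known for its part in elastic fibre assembly, had fibroblast-like cells as its first class (95.3 to 280.4 CPM) and lymphatic endothelial-like cells as its second. In the lymphatic class LOXL1 held 72.8 CPM in the inhibitor graft and 132 CPM in the untreated graft at day 7, and 51.9 CPM in the inhibitor graft and 81.4 CPM in the untreated graft at day 90. Those values rest on 59 to 83 cells per graft, and unwounded skin had only 21 such cells. Vascular endothelial-like cells held 1.02 to 3.82 CPM of LOXL1, below every lymphatic value. PLOD2 had the same second class: lymphatic endothelial-like cells held 30.5 to 104 CPM of it, and vascular endothelial-like cells 3.35 to 11.1 CPM.

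LOXL2, which also acts on the collagen of basement membranes, held 161 to 362 CPM in fibroblast-like cells, 108 to 194 CPM in mural cells and 42.7 to 93.9 CPM in vascular endothelial-like cells. SERPINH1 had the same 3 leading classes, with 724 to 1179 CPM in fibroblast-like cells and 263 to 429 CPM in vascular endothelial-like cells. It was low in T or NK-like, mast-like and myeloid-like cells, at 16.1 CPM or less. PLOD1, the lysyl hydroxylase whose loss in humans causes a kyphoscoliotic connective tissue disease, ranged from 62.8 to 109 CPM in fibroblast-like cells and from 33.5 to 62.7 CPM in vascular endothelial-like cells. In Schwann-like cells, which numbered 11 to 37 per library, PLOD1 was 79.9 CPM in the inhibitor graft and 120.1 CPM in the untreated graft at day 7, 211.5 CPM in the inhibitor graft and 127 CPM in the untreated graft at day 90, and 242 CPM in unwounded skin. These values rest on 12 to 47 UMIs each.

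P4HA1 and P4HA2 encode alternative catalytic subunits of the same enzyme and differed in where they were found. P4HA2 was at least 228 CPM in fibroblast-like cells of every library and at most 56.8 CPM in any other class of 50 cells or more. P4HA1 held 62.9 to 89.7 CPM in fibroblast-like cells, 63.1 to 78.1 CPM in a cluster led by SPP1, S100A8 and ARG1, 63.4 to 76.0 CPM in dendritic-like cells and 35.1 to 88.3 CPM in mast-like cells. In T or NK-like cells P4HA1 was 15.3 to 25.5 CPM, while P4HA2 was 1.63 to 6.73 CPM. LOXL3 was low throughout, and its highest class medians were 13.03 CPM in mast-like, 12.4 CPM in mural and 11.7 CPM in fibroblast-like cells.

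**Figure D1:**
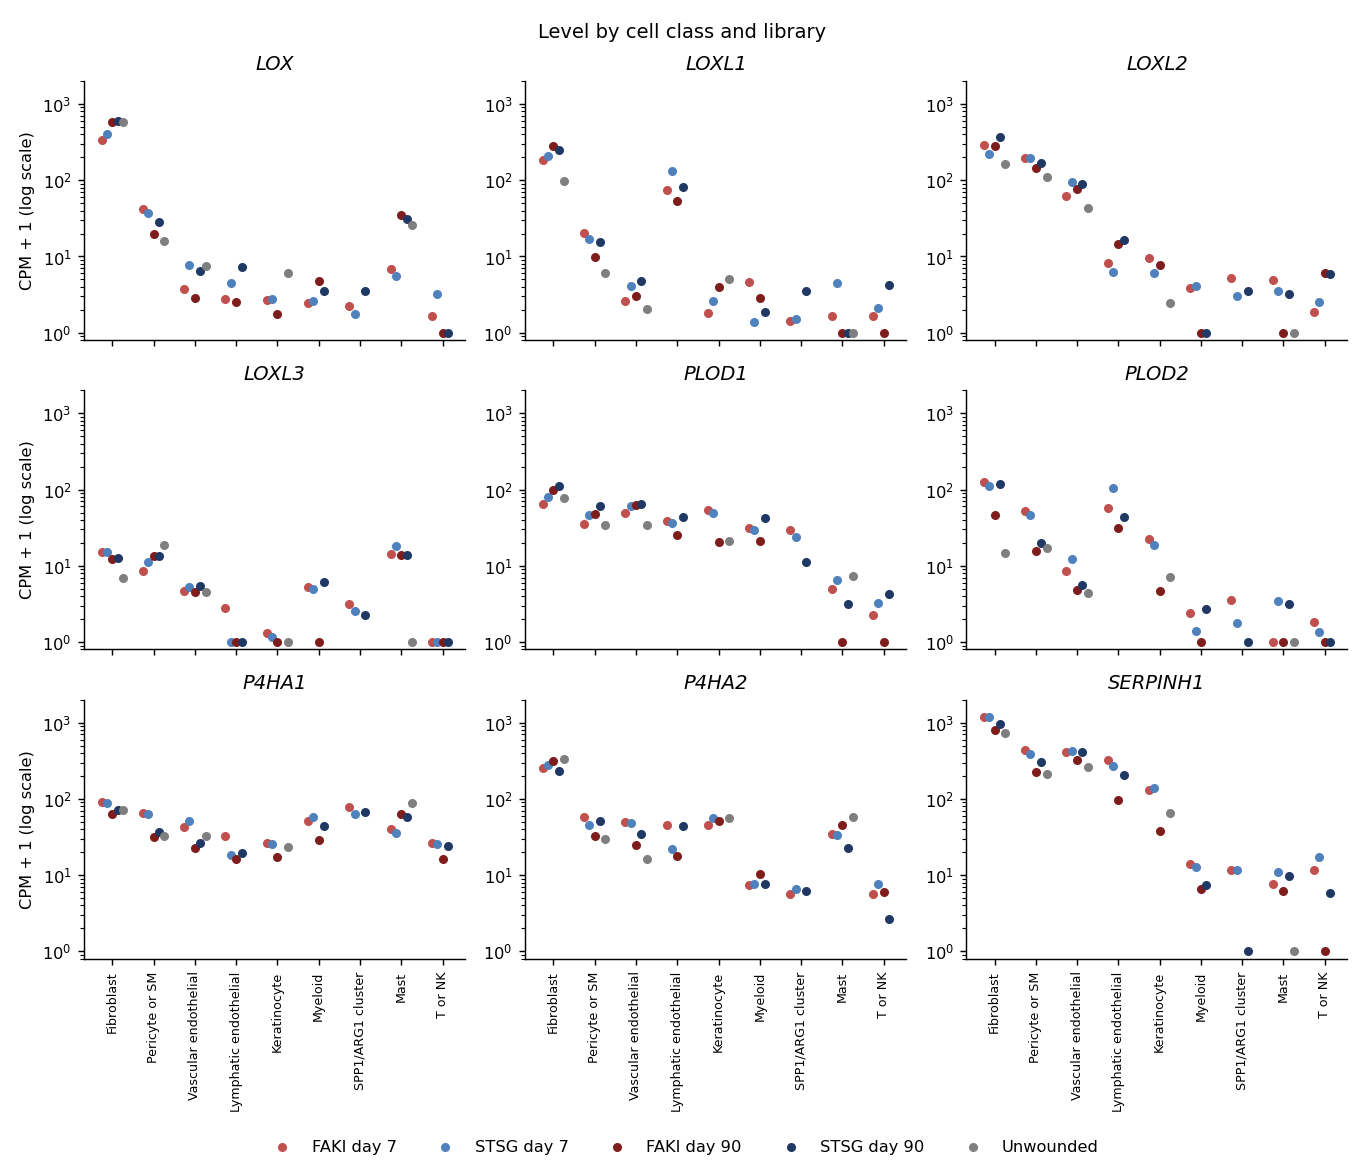
Level of each gene (CPM + 1, log axis) in 9 cell classes, with 1 point per library, and classes of under 50 cells in a library left out. LOX stands apart in fibroblast-like cells at 333 to 597 CPM, LOXL1 has a second high class in lymphatic endothelial-like cells, and P4HA1 is spread over most classes.

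The share of cells with at least 1 UMI was also counted. After thinning each cell to 2000 UMIs, LOX was detected at day 7 in 43.4% of fibroblast-like cells of the inhibitor graft and 46.4% of those of the untreated graft. The shares at day 90 were 61.4% for the inhibitor graft and 62.2% for the untreated graft, and 58.6% of the cells of unwounded skin had it. T or NK-like cells, taken as background, had LOX in 0.103% of cells in the inhibitor graft and 0.485% in the untreated graft at day 7. Without thinning the fibroblast-like shares for LOX were 82.5% to 95.03%, at median depths of 10314 to 17559 UMIs against 1968 to 2408 in T or NK-like cells. For P4HA1 the thinned share was 15.2% in the inhibitor graft and 16.7% in the untreated graft at day 7, and the T or NK-like share was 5.33% in the inhibitor graft and 3.56% in the untreated graft. SERPINH1 was detected in 71.3% to 83.4% of thinned fibroblast-like cells and LOXL3 in 1.20% to 3.60%.

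The comparison of the inhibitor graft with the untreated graft at day 7 asks how the enzymes stood early under the inhibitor hydrogel. In fibroblast-like cells 0 of the 8 genes at 50 CPM were called, and 7.33% of all 2498 genes at that level were. LOXL2 had the highest ratio, with 284 CPM in the inhibitor graft and 223 CPM in the untreated graft (1.28-fold, 1.23 to 1.33). PLOD1 had the lowest, with 62.8 CPM in the inhibitor graft and 79.6 CPM in the untreated graft (0.789-fold, 0.731 to 0.852). SERPINH1 was 1175 CPM in the inhibitor graft and 1179 CPM in the untreated graft, a ratio of 0.997 whose interval (0.978 to 1.02) holds 1. PLOD2 was 126 CPM in the inhibitor graft and 111 CPM in the untreated graft (1.14-fold, 1.07 to 1.21), P4HA1 stood at 1.04-fold (0.973 to 1.11), and LOX, LOXL1 and P4HA2 stood between 0.820 and 0.924-fold. Outside fibroblasts, LOXL2 in vascular endothelial-like cells was lower, at 61.2 CPM in the inhibitor graft and 93.9 CPM in the untreated graft (0.652-fold, 0.591 to 0.719). It was the 1 called gene of 3 at 50 CPM in that class, where 6.86% of all genes were called and 4.84% were lower. The clusters of that class differed in share. The cluster led by CXCL11 held 835 of 1167 cells in the inhibitor graft and 865 of 1519 in the untreated graft. That led by ADGRF4 and AQP1 held 122 cells in the inhibitor graft and 313 in the untreated graft. LOXL2 levels within these clusters are not given here. In mural cells LOXL2 was 194 CPM in the inhibitor graft and 193 CPM in the untreated graft, and 0 of 5 genes were called (8.41% of all genes), with 632 cells of the inhibitor graft and 16 of the untreated graft in a mural cluster led by CXCL10. In lymphatic endothelial-like cells 2 of 3 genes at 50 CPM were lower, where 17.4% of all genes were called and 10.2% were lower. They were LOXL1 (0.553-fold, 0.368 to 0.820) and PLOD2, with 56.8 CPM in the inhibitor graft, from 32 UMIs, and 104 CPM in the untreated graft, from 59 UMIs (0.549-fold, 0.345 to 0.858). PLOD2 thus lay on opposite sides of 1 in the lymphatic and fibroblast-like cells of day 7.

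At day 90, PLOD2 was the 1 gene of the 9 that was called between the grafts in fibroblast-like cells. PLOD2 hydroxylates the ends of the collagen chains, which gives rise to the pyridinoline crosslinks typical of bone, cartilage and scar. It held 44.9 CPM in the inhibitor graft, from 636 UMIs, and 118 CPM in the untreated graft, from 4625 UMIs (0.382-fold, 0.351 to 0.415). It was lower, and 0 of the 8 genes at 50 CPM were higher, where 11.8% of 2241 genes were called in either direction and 5.58% were lower. The thinned share of fibroblast-like cells with a PLOD2 UMI was 7.46% (5.71 to 9.53) in the inhibitor graft and 19.7% (18.0 to 21.5) in the untreated graft. Unthinned, it was 37.1% in the inhibitor graft and 68.5% in the untreated graft.

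The other genes differed less at day 90. P4HA2 was 312 CPM in the inhibitor graft and 228 CPM in the untreated graft (1.37-fold, 1.32 to 1.42), the opposite side from PLOD2. LOXL2 was 282 CPM in the inhibitor graft and 362 CPM in the untreated graft (0.778-fold, 0.752 to 0.806). SERPINH1 stood at 0.848-fold, P4HA1 at 0.882-fold, PLOD1 at 0.894-fold, LOX at 0.960-fold and LOXL1 at 1.14-fold. In mural cells P4HA2 was the 1 lower gene of 4 at 50 CPM, with 31.8 CPM in the inhibitor graft and 50.5 CPM in the untreated graft (0.630-fold, 0.529 to 0.749). There 5.63% of all genes were called and 3.26% were lower. The P4HA2 intervals thus lay on opposite sides of 1 in fibroblast-like and mural cells. In vascular endothelial-like cells 0 of 3 genes were called (2.07% of all genes). In lymphatic endothelial-like cells both genes at 50 CPM were lower, where 23.5% of all genes were called and 14.9% were lower. SERPINH1 there was 96.2 CPM in the inhibitor graft and 205 CPM in the untreated graft (0.469-fold, 0.342 to 0.639), while the interval of LOXL1 held 1 (0.638-fold, 0.402 to 1.002).

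**Figure D2:**
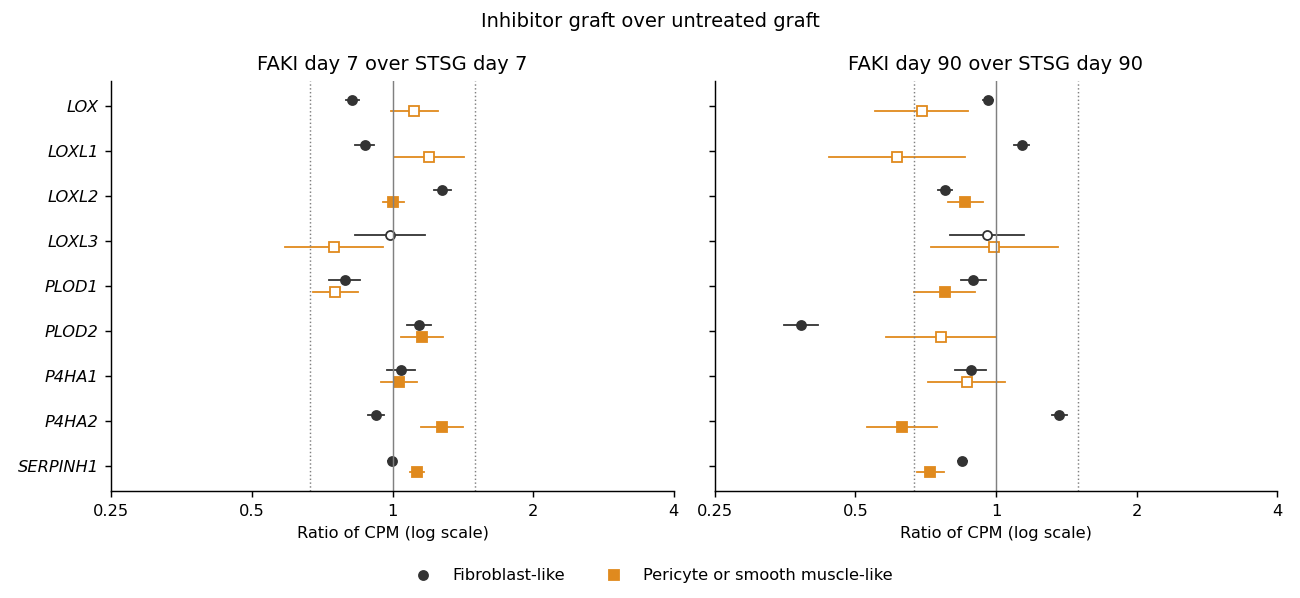
Ratio of CPM in the inhibitor graft over the untreated graft (log axis) at day 7 and day 90, with exact 95% intervals for counting error. Filled symbols mark genes at 50 CPM in either library, dotted lines mark 1.5-fold, and PLOD2 at day 90 in fibroblast-like cells lies farthest from 1, at 0.382.

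Sums over all cells gave other ratios at day 90 than fibroblast-like cells did. Over all cells 5 of 8 genes were lower in the inhibitor graft (LOX, LOXL1, LOXL2, PLOD2 and SERPINH1), where 18.1% of 2829 genes were called and 6.47% were lower. LOX over all cells was 176 CPM in the inhibitor graft and 324 CPM in the untreated graft (0.544-fold, 0.530 to 0.558), although within fibroblast-like cells its ratio was 0.960. Fibroblast-like cells were 21.4% of cells in the inhibitor graft and 38.8% in the untreated graft at day 90. A sum over all cells does not by itself separate a smaller share of fibroblasts from less RNA per fibroblast. For LOX, fibroblast-like cells held 8107 of 8323 UMIs in the inhibitor graft and 23462 of 23808 in the untreated graft. PLOD2 was lower on both scales, at 17.9 CPM in the inhibitor graft and 66.6 CPM in the untreated graft over all cells (0.268-fold).

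The order of the 5 libraries differed from gene to gene in fibroblast-like cells. LOX was highest in the untreated graft at day 90, unwounded skin and the inhibitor graft at day 90, and neither day 90 graft differed from unwounded skin beyond counting error (0.987-fold, 0.939 to 1.04, for the inhibitor graft and 1.03-fold, 0.981 to 1.08, for the untreated graft). Both day 7 grafts were the low libraries for LOX. LOXL2 was highest in the untreated graft at day 90 and lowest in unwounded skin, and the inhibitor grafts at day 90 and day 7 lay together between them (0.992-fold, 0.953 to 1.03).

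PLOD1 was 62.8 CPM in the inhibitor graft and 79.6 CPM in the untreated graft at day 7, 97.3 CPM in the inhibitor graft and 109 CPM in the untreated graft at day 90, and 75.6 CPM in unwounded skin. The untreated graft at day 7 and unwounded skin did not differ beyond counting error (1.05-fold, 0.918 to 1.21). P4HA1 was 89.7 CPM in the inhibitor graft and 86.2 CPM in the untreated graft at day 7, 62.9 CPM in the inhibitor graft and 71.3 CPM in the untreated graft at day 90, and 70.7 CPM in unwounded skin. The intervals of the ratio hold 1 for the day 7 pair and for each day 90 graft against unwounded skin. The day 90 pair differed beyond counting error (0.882-fold, 0.817 to 0.952). Both day 7 grafts were above unwounded skin, under the 1.5-fold rule. The ratios were 1.27 (1.105 to 1.464) for the inhibitor graft and 1.219 (1.06 to 1.408) for the untreated graft. P4HA2 was 257 CPM in the inhibitor graft and 278 CPM in the untreated graft at day 7, 312 CPM in the inhibitor graft and 228 CPM in the untreated graft at day 90, and 337 CPM in unwounded skin. Unlike LOXL1, LOXL2 and PLOD2, P4HA2 was below its unwounded level in each graft (0.678-fold to 0.926-fold), with 0 calls. LOXL3 was 14.1 CPM in the inhibitor graft and 14.2 CPM in the untreated graft at day 7, 11.2 CPM in the inhibitor graft and 11.7 CPM in the untreated graft at day 90, and 5.92 CPM in unwounded skin, where it rests on 19 UMIs.

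**Figure D3:**
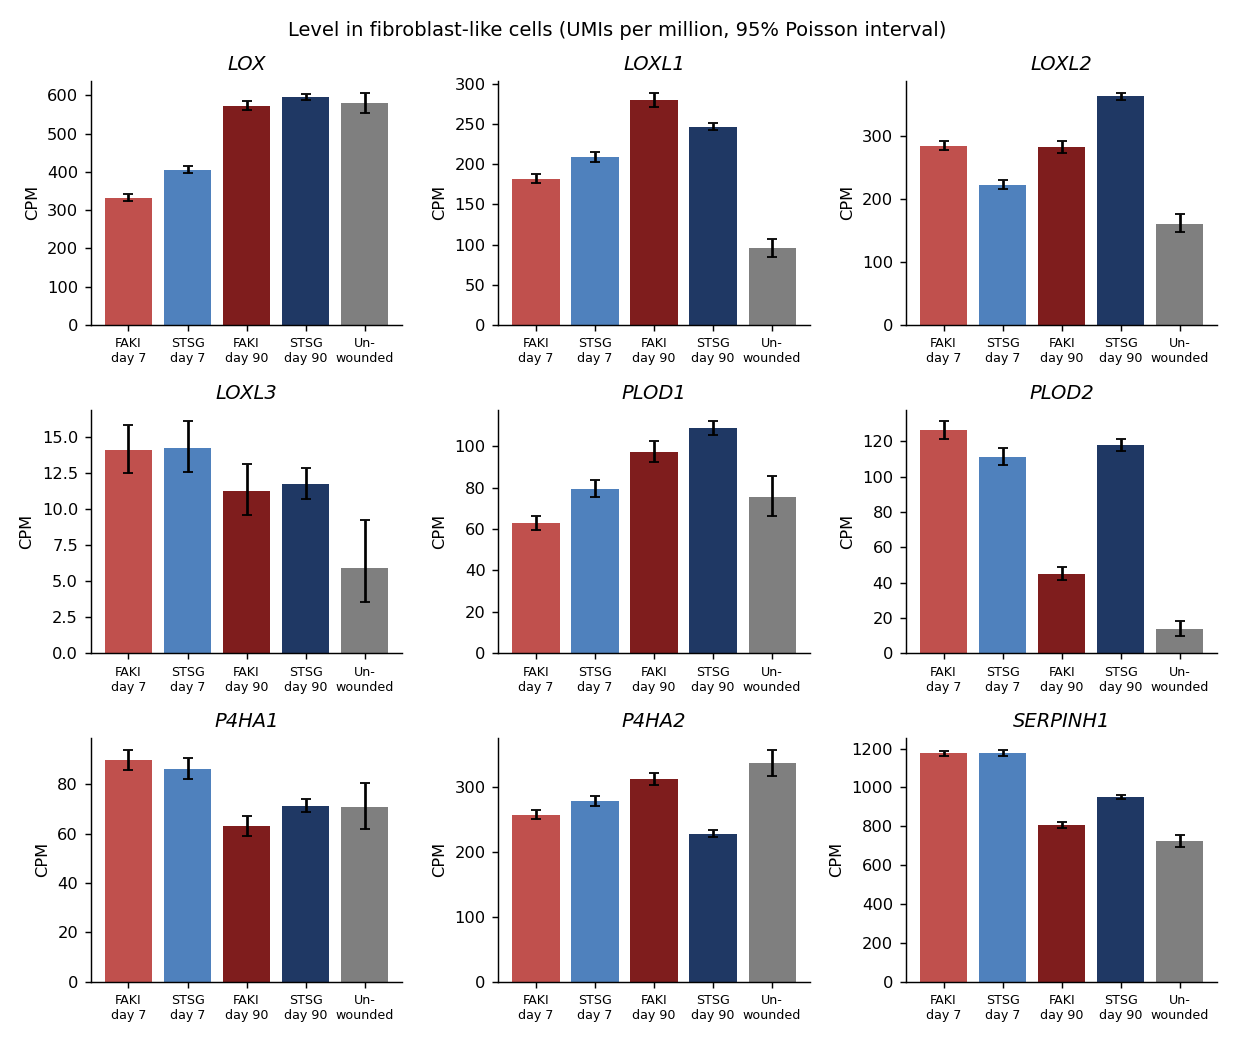
Level of each gene in fibroblast-like cells of the 5 libraries (CPM, bars from 0, with exact 95% Poisson intervals). PLOD2 is low in the inhibitor graft at day 90 (44.9 CPM) and in unwounded skin (13.7 CPM), and LOX is low in both day 7 grafts.

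The fibroblast-like class was made of 6 clusters whose shares differed between libraries, so the values were also read within clusters. At day 7 the cluster led by GREM1, F13A1 and POSTN held 48.2% of fibroblast-like cells in the inhibitor graft and 53.4% in the untreated graft. At day 90 the cluster led by THBS4, SFRP2 and COL11A1 held 21.8% in the inhibitor graft and 49.5% in the untreated graft, and the cluster led by CPZ, CCDC80 and PI16 held 43.7% in the inhibitor graft and 11.4% in the untreated graft. The cluster led by MMP13, MMP3 and IL11 had 3 cells in the inhibitor graft and 365 cells in the untreated graft at day 90. Unwounded skin had 123 cells in the CPZ and PI16 cluster, 123 in a cluster led by C4A, EFEMP1 and SFRP4, 7 in the GREM1 cluster and 6 in the cycling cluster.

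PLOD2 differed between clusters of the same library. In the untreated graft at day 90, which had 20 or more cells in each of the 6 clusters, it was 148 CPM in the MMP13 and IL11 cluster, 133 CPM in the THBS4 cluster, 110.1 CPM in a cycling cluster led by UBE2C and CDC20, 56.2 CPM in the C4A cluster, 44.9 CPM in the GREM1 cluster and 33.75 CPM in the CPZ and PI16 cluster. At day 7 the MMP13 and IL11 cluster held 169.8 CPM in the inhibitor graft and 203 CPM in the untreated graft, against 72.6 CPM (inhibitor) and 57.7 CPM (untreated) in the GREM1 cluster. The CPZ and PI16 cluster was the lowest of those with 20 cells in 4 of the 5 libraries. In the inhibitor graft at day 7 it held 120 CPM (82.4 to 168), from 30 cells.

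LOX had another order. The CPZ and PI16 cluster was its highest in each of the 5 libraries (of 2 clusters in unwounded skin), at 946 CPM in the inhibitor graft and 792 CPM in the untreated graft at day 7, 613 CPM in the inhibitor graft and 758 CPM in the untreated graft at day 90, and 632 CPM in unwounded skin. The MMP13 and IL11 cluster held 291 CPM of LOX in the inhibitor graft and 345 CPM in the untreated graft at day 7, and 361.5 CPM in the untreated graft at day 90. LOXL2 was lowest in the C4A and the CPZ and PI16 clusters in each graft. In the untreated graft at day 90 it was 139.6 CPM in the C4A cluster and 184 CPM in the CPZ and PI16 cluster, against 411 CPM in the THBS4 cluster and 387 CPM in the MMP13 and IL11 cluster. SERPINH1 was lowest in the C4A cluster in each graft, at 568.5 CPM in the inhibitor graft and 626 CPM in the untreated graft at day 90.

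Within each of the 4 clusters with 20 or more cells in both day 90 grafts, PLOD2 was below its untreated value. In the THBS4 cluster it was 93.0 CPM in the inhibitor graft and 133 CPM in the untreated graft (0.698-fold, 0.627 to 0.776). In the C4A cluster it was 28.6 CPM in the inhibitor graft and 56.2 CPM in the untreated graft (0.508-fold, 0.381 to 0.672). In the CPZ and PI16 cluster it was 16.8 CPM in the inhibitor graft and 33.75 CPM in the untreated graft (0.497-fold, 0.379 to 0.650). The cycling cluster had 69.1 CPM in the inhibitor graft and 110.1 CPM in the untreated graft (0.628-fold, 0.443 to 0.870). With these 4 clusters weighing the same the log2 ratio was -0.68, against -1.39 for the whole class. So the difference was present in each cluster, and smaller there than in the class.

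P4HA2 was 1.70-fold (1.60 to 1.80) in the THBS4 cluster at day 90, with 358 CPM in the inhibitor graft and 211 CPM in the untreated graft, and 1.08-fold in the CPZ and PI16 cluster. LOXL2, at 0.778-fold in the class, was 1.02-fold (0.969 to 1.075) in the THBS4 cluster, 1.21-fold (1.10 to 1.33) in the CPZ and PI16 cluster, 1.20-fold (1.04 to 1.37) in the C4A cluster and 0.943-fold (0.821 to 1.08) in the cycling cluster. The class ratio lay outside all 4 intervals. LOXL1 was 1.26-fold in the THBS4 cluster and 0.733-fold in the CPZ and PI16 cluster. At day 7, LOXL2 was 1.44-fold (1.34 to 1.55) in the GREM1 cluster, with 243 CPM in the inhibitor graft and 169 CPM in the untreated graft. In the MMP13 cluster it was 0.994-fold (0.937 to 1.05).

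**Figure D4:**
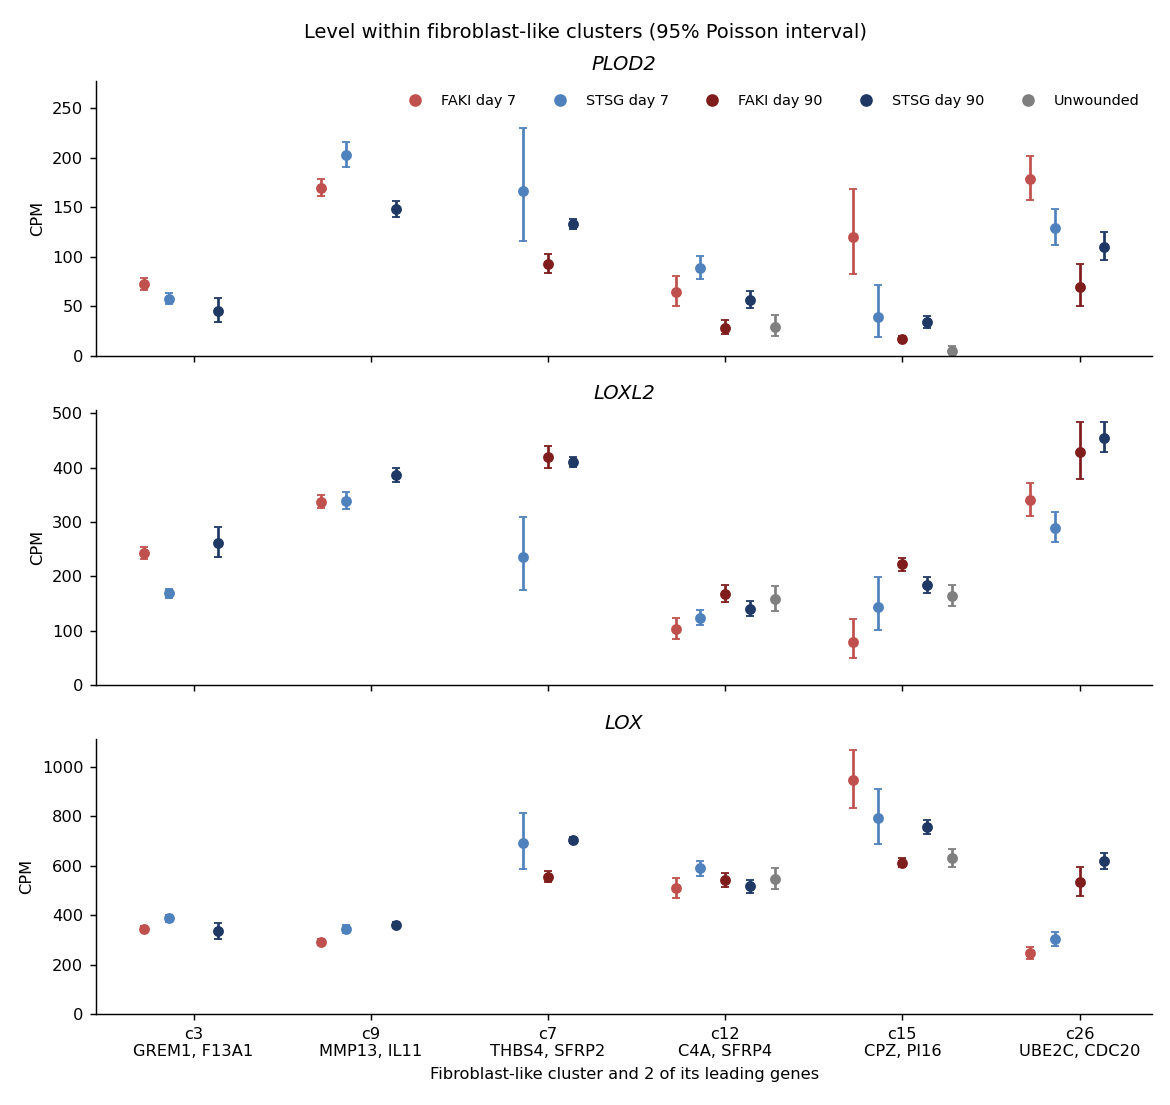
PLOD2, LOXL2 and LOX (CPM, with exact 95% Poisson intervals) in the 6 fibroblast-like clusters, c3 to c26, by library, where a cluster held 20 or more cells. PLOD2 in the inhibitor graft at day 90 lies below the untreated graft in each of the 4 clusters that hold both.

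Markers of other cell types in the fibroblast-like sums differed in both directions between the day 90 grafts. Of 16 lists, 7 summed lower and 9 higher in the inhibitor graft, 3 of them lower and 4 higher by 1.5-fold or more. The pericyte or smooth muscle list summed to 1238 CPM in the inhibitor graft and 2490 CPM in the untreated graft, with 3 of its 13 genes at 50 CPM in each. PLOD2 itself was 14.6 CPM in the mural cells of the inhibitor graft and 19.1 CPM in those of the untreated graft, below its level in the fibroblast-like cells of each. The erythroid list summed to 0.777 CPM in the inhibitor graft and 49.6 CPM in the untreated graft, and the neutrophil list to 0.424 CPM in the inhibitor graft and 25.6 CPM in the untreated graft at day 90. The lists on the other side by 1.5-fold were those of keratinocytes (56.7 CPM in the inhibitor graft and 36.75 CPM in the untreated graft), vascular endothelium (41.2 CPM in the inhibitor graft and 25.9 CPM in the untreated graft), adipocytes (40.6 CPM in the inhibitor graft and 25.7 CPM in the untreated graft) and glandular epithelium (16.0 CPM in the inhibitor graft and 9.13 CPM in the untreated graft). At day 7 the neutrophil list summed to 187 CPM in the inhibitor graft and 72.6 CPM in the untreated graft. The part of these markers in the results was not tested.

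Against unwounded skin, the question was which enzymes differed in grafts. LOXL1 was higher in fibroblast-like cells of all 4 grafts. It was 182 CPM in the inhibitor graft and 209 CPM in the untreated graft at day 7, 280.4 CPM in the inhibitor graft and 247 CPM in the untreated graft at day 90, against 95.3 CPM in unwounded skin. The ratios ran from 1.91 (1.70 to 2.16) in the inhibitor graft at day 7 to 2.94 (2.62 to 3.32) in the inhibitor graft at day 90. PLOD2 was 9.23-fold (6.85 to 12.7) the unwounded level in the inhibitor graft and 8.11-fold (6.02 to 11.2) in the untreated graft at day 7. At day 90 it was 3.28-fold (2.42 to 4.56) in the inhibitor graft, where it stayed under 50 CPM, and 8.59-fold (6.39 to 11.8) in the untreated graft. The unwounded level of 13.7 CPM came from 44 UMIs in 259 cells.

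Counts of called genes have to be read against a high background here. In the inhibitor graft at day 7, 4 of 8 genes were higher (LOXL1, LOXL2, PLOD2 and SERPINH1) and 1 was lower (LOX), where 63.4% of all genes were called, 42.8% higher and 20.6% lower. In the untreated graft at day 7, 3 of 8 were higher (LOXL1, PLOD2 and SERPINH1), where 54.3% were called and 37.6% were higher. In the inhibitor graft at day 90, 2 of 7 were higher (LOXL1 and LOXL2), where 25.8% were called and 9.53% were higher. In the untreated graft at day 90, 3 of 8 were higher (LOXL1, LOXL2 and PLOD2), where 44.4% were called and 23.6% were higher. The THBS4 and MMP13 clusters, where LOXL2 was high, held 1036 and 365 cells of that graft and 0 of unwounded skin. With shared clusters weighing the same, only 1 gene was called in each day 90 graft. The class ratios of LOXL2 at day 90 thus compare unlike cluster shares, whose part was not tested. The median log2 ratio of the members at 50 CPM was 0.52 in the inhibitor graft at day 7, where that of all genes was 0.38, and 0.38 in the untreated graft, where that of all genes was 0.34. At day 90 it was 0.155 in the inhibitor graft, beside 0.03 over all genes, and 0.46 in the untreated graft, beside 0.16.

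The shift of all genes moved with the main collagens. COL1A1, COL1A2 and COL3A1 together took 6.93% of fibroblast-like UMIs in the inhibitor graft and 8.78% in the untreated graft at day 7. They took 23.5% in the inhibitor graft and 19.0% in the untreated graft at day 90, and 25.4% in unwounded skin. With collagen and mitochondrial genes taken out of the total, SERPINH1 was no longer called at day 7 (log2 ratio 0.31 in the inhibitor graft and 0.37 in the untreated graft). LOXL1 stayed above the unwounded level in all 4 grafts but missed 1.5-fold in the inhibitor graft at day 7 (log2 ratio 0.55). On that scale LOXL2 also missed it there (0.44), and PLOD1 (-0.65) and P4HA2 (-0.77) passed it on the lower side. LOX at day 7 was 0.573-fold (0.545 to 0.604) the unwounded level in the inhibitor graft and 0.699-fold (0.664 to 0.736) in the untreated graft, and without collagens in the total the log2 ratio of the untreated graft was -0.85.

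Against unwounded skin at day 7, 2 clusters held 20 or more cells on both sides, and in the inhibitor graft they held 7.91% (C4A) and 2.12% (CPZ and PI16) of the fibroblast-like cells. In the C4A cluster LOX was 509 CPM in the inhibitor graft (0.929-fold, 0.829 to 1.04) and 589 CPM in the untreated graft (1.08-fold, 0.980 to 1.18) at day 7, against 548 CPM in unwounded skin. In the CPZ and PI16 cluster it was 946 CPM in the inhibitor graft, from 30 cells, and 792 CPM in the untreated graft, from 24 cells, against 632 CPM in unwounded skin. With both clusters weighing the same, the log2 ratio of LOX in the inhibitor graft was 0.30, on the other side from its class ratio, through the CPZ and PI16 cluster. LOXL2 in the C4A cluster was 103 CPM in the inhibitor graft and 124 CPM in the untreated graft at day 7, against 158 CPM in unwounded skin. In the inhibitor graft LOXL2 was below unwounded skin in both clusters, and its log2 ratio with clusters weighing the same was -0.81, whereas the class ratio was 1.77-fold. PLOD2 in the C4A cluster was 64.25 CPM in the inhibitor graft and 88.3 CPM in the untreated graft at day 7, 28.6 CPM in the inhibitor graft and 56.2 CPM in the untreated graft at day 90, and 29.4 CPM in unwounded skin. There the inhibitor graft at day 90 lay beside unwounded skin, with overlapping intervals. In the CPZ and PI16 cluster it was 16.8 CPM in the inhibitor graft and 33.75 CPM in the untreated graft at day 90, against 5.27 CPM in unwounded skin.

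Other classes also differed from unwounded skin at day 7. In mural cells all 5 genes at 50 CPM were higher in the inhibitor graft (LOXL2, PLOD2, P4HA1, P4HA2 and SERPINH1), where 51.7% of all genes were called and 23.9% were higher. PLOD2, P4HA1 and P4HA2 reached 50 CPM only in the inhibitor graft, at 52.0, 64.0 and 56.8 CPM, against 16.1, 31.2 and 29.2 CPM in unwounded skin. The rule thus took them in through the library where they were high. PLOD1, at 34.7 CPM in the inhibitor graft and 33.7 CPM in unwounded skin, was under it. The mural cells lay in different clusters: those led by HIGD1B and by CXCL10 held 712 and 632 cells of the inhibitor graft, against 27 and 1 of unwounded skin, which had 140 cells in a cluster led by ITIH4 and MYH11. SERPINH1 in mural cells was 433 CPM in the inhibitor graft and 384 CPM in the untreated graft, against 213 CPM in unwounded skin. At day 90 the mural level was 223 CPM in the inhibitor graft and 308 CPM in the untreated graft, and 0 of 2 genes at 50 CPM were called in the inhibitor graft (7.25% of all genes). In keratinocyte-like cells SERPINH1 was 131 CPM in the inhibitor graft and 138 CPM in the untreated graft at day 7, against 63.45 CPM in unwounded skin, and 37.05 CPM in the inhibitor graft at day 90.

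Between day 90 and day 7, 4 of 8 genes were called in the inhibitor grafts and 1 of 8 in the untreated grafts. In fibroblast-like cells of the inhibitor grafts LOX (1.72-fold, 1.67 to 1.78), LOXL1 (1.54-fold, 1.47 to 1.61) and PLOD1 (1.55-fold, 1.43 to 1.67) were higher at day 90 and PLOD2 was lower (0.356-fold, 0.326 to 0.388), where 53.3% of all genes were called, 13.8% higher and 39.5% lower. In the untreated grafts the called gene was LOXL2, which was higher at day 90 (1.63-fold, 1.57 to 1.69), where 28.1% were called and 8.61% were higher. The LOXL2 call was lost when the shared clusters weighed the same. The THBS4 cluster, where LOXL2 was high, held 21 cells of the untreated graft at day 7 and 1036 at day 90. LOX in the untreated grafts was 1.47-fold (1.43 to 1.51) and so just under the rule. PLOD2 in the untreated grafts was 1.06-fold (1.004 to 1.12), with 118 CPM at day 90 and 111 CPM at day 7. SERPINH1 was 0.686-fold in the inhibitor grafts and 0.807-fold in the untreated grafts. The LOX ratio of the inhibitor grafts disappeared when the shared clusters weighed the same (log2 ratio -0.01), and most day 7 and day 90 cells lay in different clusters.

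The 9 genes were also set against the collagen RNA of the same cells, as UMIs per 1000 UMIs of COL1A1, COL1A2 and COL3A1. PLOD2 was 1.82 per 1000 in the inhibitor graft and 1.27 in the untreated graft at day 7. It was 0.191 in the inhibitor graft and 0.618 in the untreated graft at day 90, and 0.0539 in unwounded skin. SERPINH1 was 16.9 in the inhibitor graft and 13.4 in the untreated graft at day 7. At day 90 it was 3.43 in the inhibitor graft and 5.0 in the untreated graft, and 2.85 in unwounded skin. Per collagen UMI all 8 members at 50 CPM were higher in both day 7 grafts than in both day 90 grafts and unwounded skin, but 91.7% of 2878 genes at that level were too, so the order is not particular to the members. At day 90, P4HA1 at 0.268 in the inhibitor graft and P4HA2 at 1.33 in the inhibitor graft and 1.20 in the untreated graft were near their unwounded values of 0.278 and 1.32.

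**Figure D5:**
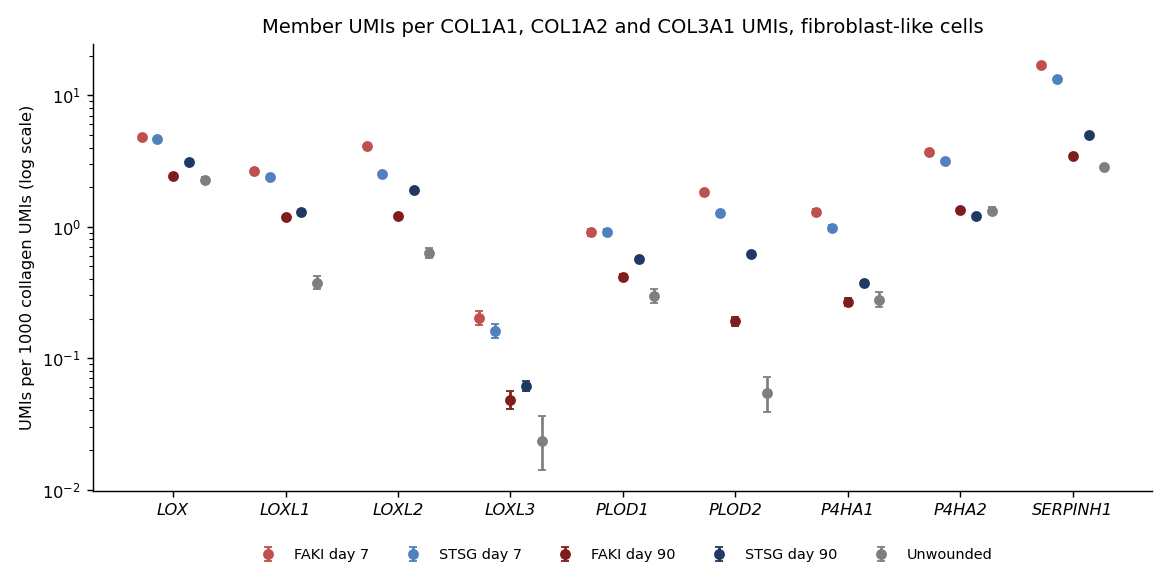
UMIs of each gene per 1000 UMIs of COL1A1, COL1A2 and COL3A1 in fibroblast-like cells (log axis, exact 95% intervals), by library. Both day 7 grafts lie above the other libraries, as they do for 91.7% of all genes, and PLOD2 spans the widest range, with 1.82 for the inhibitor graft at day 7 and 0.0539 for unwounded skin.

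Partner genes were counted in fibroblast-like cells in 4 lists. Of the modification partners in the endoplasmic reticulum, 0 of 18 at 50 CPM were called between the grafts at day 7 and 0 of 18 at day 90, with median log2 ratios of 0.12 at day 7 and -0.15 at day 90 (0.06 at day 7 and -0.13 at day 90 over all genes). P4HA3, the third catalytic subunit of the prolyl hydroxylase, was 265 CPM in the inhibitor graft and 182 CPM in the untreated graft at day 7 (1.45-fold, 1.39 to 1.52). At day 90 it was 259 CPM in the inhibitor graft and 377 CPM in the untreated graft (0.687-fold, 0.663 to 0.713), against 77.2 CPM in unwounded skin. PLOD3, the lysyl hydroxylase that also glycosylates collagen, was 0.673-fold (0.611 to 0.740) between the day 90 grafts. COLGALT1, a collagen galactosyltransferase, was 0.669-fold (0.616 to 0.726) there. CREB3L1, a transcription factor of collagen secretion, was lower in both day 7 grafts, at 165 CPM in the inhibitor graft (0.357-fold) and 199.6 CPM in the untreated graft (0.432-fold), against 462 CPM in unwounded skin.

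Of the extracellular processing partners, TGM2 (transglutaminase, which forms crosslinks of another kind) stood on the same side as PLOD2 on both days. It was 70.6 CPM in the inhibitor graft and 27.0 CPM in the untreated graft at day 7, and 2.19 CPM in the inhibitor graft and 72.2 CPM in the untreated graft at day 90 (0.0304-fold, 0.0206 to 0.0432). A single TGM2 UMI, 0.311 CPM, was counted in fibroblast-like cells of unwounded skin. POSTN, a matricellular protein that assists crosslinking, was 0.596-fold (0.591 to 0.601) between the grafts at day 7 and 1.54-fold (1.53 to 1.55) at day 90. In that list 1 gene was higher and 1 lower of 12 at day 7, and 2 were higher and 2 lower of 12 at day 90, where 7.33% of all genes were called at day 7 and 11.8% at day 90. FMOD, a proteoglycan that binds collagen and LOX, was 377 CPM in the inhibitor graft and 536 CPM in the untreated graft at day 90, against 72.8 CPM in unwounded skin.

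The same background holds for the other lists. Among substrates, 0 genes were higher and 2 lower of 16 between the grafts at day 7 (COL14A1 at 0.540-fold and COL8A1 at 0.641-fold). At day 90, 2 were higher and 0 lower of 16 (COL5A3 at 2.04-fold and COL6A3 at 1.61-fold), which is near the 11.8% of all genes, with a list median log2 ratio of 0.37 beside -0.13 over all genes. COL11A1 was 560.3 CPM in the inhibitor graft and 831 CPM in the untreated graft at day 90, against 15.6 CPM in unwounded skin. In the hypoxia and glycolysis list, 1 of 9 genes was higher at day 7 (ADM, 2.34-fold, 2.19 to 2.50) and 1 of 8 was lower at day 90 (LDHA, 0.582-fold, 0.546 to 0.621). LDHA, a glycolytic enzyme, was 278 CPM in the inhibitor graft and 206.5 CPM in the untreated graft at day 7, 80.5 CPM in the inhibitor graft and 138 CPM in the untreated graft at day 90, and 70.35 CPM in unwounded skin.

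Likeness of pattern was described by Pearson's r of log2(CPM + 10) over 44 sums of a class in a library, from 11 classes, among 6108 genes. The sums share libraries and depth, and r mostly reflects which classes hold a gene. LOX was most like SFRP4 (r = 0.970), LOXL1 most like MMP23B (0.973), LOXL2 most like MFRP (0.964) and SERPINH1 most like PPIC (0.959). PLOD2 was most like NEXN (0.889), followed by LOXL1 itself (0.875). The least alike members were PLOD2 and P4HA1 (0.207), and the most alike were LOXL2 and SERPINH1 (0.879). The matches of PLOD1 (VKORC1, 0.907), P4HA2 (SEC13, 0.904), LOXL3 (MAN2A2, 0.819) and P4HA1 (RAB31, 0.817) were looser.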

How the data were processed

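The deposited files are matrices of UMI counts per gene and cell barcode from 10x Genomics 3′ libraries (v3 chemistry), per the labels' protocols. Cell Ranger and Seurat 3.1.1 are named in the submitters' processing notes, and the Seurat output was not used here. The Cell Ranger version and genome build are not given in the sources used here, so no coordinates are printed. Symbols came from the files, and 677 from an Sscrofa11.1 table (15351 of 20286 identifiers had one).

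Of 32554 barcodes, cells with at least 500 genes and at most 25% mitochondrial UMIs were kept. Doublets were scored with Scrublet in Scanpy 1.11.5. Its automatic threshold called 0 to 83 cells per library, so the top 0.8% per 1000 cells were removed (19 to 700 cells), which left 26842 cells. Clustering used 2000 variable genes without 78 genes (the members and partner lists), 30 principal components, 20 neighbours and Leiden resolution 1, with no integration. Of 33 clusters, 29 were named from 147 measured markers of 17 classes, and 4 were not. A cluster scored as neutrophil (4.04, against 2.10 for myeloid), with 5 of 5 measured neutrophil markers raised and S100A8 and S100A12 among its leading genes. SPP1 and ARG1 were also among them, and the name was withheld on that ground, apart from the scoring rules.

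UMIs were summed per class and library, scaled to CPM and compared with exact Poisson, conditional binomial and Clopper-Pearson intervals at 95%. Shares of cells were thinned to 2000 UMIs per cell. A floor of 3 counts stood for 0 UMIs. No test was possible with 1 library per group. The comparison code was tested on simulated data. Versions were leidenalg 0.10.2, Matplotlib 3.10.9, pandas 2.3.3, SciPy 1.17.1, NumPy 2.4.6 and Python 3.11.15. The text names all 9 members, up to 3 genes per partner list and comparison with the largest ratio, and the most similar genes by pattern. Genes given in other comparisons than the one that named them are there for completeness. The members and lists were chosen with earlier results of these data known. The lists lack PCOLCE2, COL6A2 and SLC2A1, which had no row.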

Additional observations from a re-analysis of the deposited data

Results flagged for a closer look

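The ratios of the inhibitor graft over the untreated graft lay on opposite sides of 1 at day 7 and day 90 for some genes. These were 4 of the 9 genes in fibroblast-like cells and 2 of the 9 in pericyte or smooth muscle-like cells. Their counting intervals exclude 1 on both days. The difference between the days was not tested, since each group is 1 library. The share of all genes that do the same was not counted, so the switch cannot be called particular to these genes. In fibroblast-like cells PLOD2 was 1.137 (1.072 to 1.206) at day 7 and 0.3822 (0.3512 to 0.4153) at day 90. LOXL2 was 1.278 (1.227 to 1.331) at day 7 and 0.7785 (0.7515 to 0.8064) at day 90. That day 90 value of the class lay outside the LOXL2 interval of each cluster compared above, so it was not seen within clusters. P4HA2 was 0.9236 (0.8882 to 0.9604) at day 7 and 1.367 (1.318 to 1.417) at day 90, and LOXL1 was 0.8711 (0.8321 to 0.912) at day 7 and 1.135 (1.094 to 1.178) at day 90. Within clusters at day 90, LOXL1 lay above 1 in the THBS4 cluster and below 1 in the CPZ and PI16 cluster, so its class value did not hold in each. In pericyte or smooth muscle-like cells P4HA2 was 1.275 (1.151 to 1.414) at day 7 and 0.6301 (0.5293 to 0.7489) at day 90, and SERPINH1 was 1.129 (1.09 to 1.169) at day 7 and 0.7239 (0.6773 to 0.7737) at day 90.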

How the results depend on the processing

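No paired analysis was possible because each group is 1 library. PLOD2 was lower in the inhibitor graft at day 90 under all 10 alternatives for its ratio, with log2 ratios of -0.68 to -1.49. These include resolution 0.5, which gave the main numbers of fibroblast-like cells in each library and so was no independent check. Counts of called members in fibroblast-like cells stayed within 1.5 times under the other settings, except the following. A 2-fold rule left 1 in the inhibitor graft over unwounded skin on each day, 1 between the inhibitor grafts at day 90 and day 7, and 0 between the untreated grafts. Shared clusters weighing the same left 1 for each day 90 graft over unwounded skin and 0 between the untreated grafts. A mean of per-cell CPM gave 1 for the inhibitor graft at day 90 over unwounded skin and 2 between the untreated grafts, and minimums of 10 CPM or 1 UMI gave 4 for the inhibitor graft at day 90. Median-of-ratios scaling and totals without mitochondrial and collagen genes each gave 3 between the untreated grafts. The share of all genes called under these other settings was not counted, so these counts show only how the member calls moved. With shared clusters weighing the same, 3 called log2 ratios reversed: LOX (0.30) and LOXL2 (-0.81) in the inhibitor graft at day 7 over unwounded skin, and LOX (-0.011) between the inhibitor grafts. That setting holds fewer clusters than the class, and the cause was not tested otherwise. Keeping doublets and looser filtering left all 72 ratios within their intervals. Resolution 0.5 did too, with fibroblast-like cells in unchanged numbers. Without thinning, 45 of 45 shares of cells moved. The setting without shared barcodes was chosen after seeing the data. Unwounded skin, with 259 fibroblast-like cells, limits the precision of comparisons with it.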
